A study of Mus musculus with 182 samples.

Results

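Single germinal centre B cells in which Myc transcript was detected were compared with cells in which it was not. Cells with Myc were those with a normalized Myc value of at least 1, and they numbered 34 of the 182 cells measured. The other 148 cells had a value under 1. All 182 cells formed 1 group: B220+ B cells with high Fas and high GL7, sorted from spleens of C57BL/6 mice on day 13 after intraperitoneal NP(23)-KLH, a hapten on a carrier protein, in alum with LPS. The sample labels add binding of NP to the sort, whereas the design text lists NP among the stains only. No mouse carried an altered allele according to the labels, and there was no untreated group. Each cell gave 1 library on the Fluidigm C1 system. The labels name no animals, so both sides of the comparison came from 1 biological sample of an unknown number of mice. Cells are not replicates, and no p-value is given. Intervals for shares of cells are exact Clopper-Pearson 95% intervals that cover counting error only.

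Germinal centres are sites where activated B cells divide, mutate their antibody genes in the dark zone and compete for antigen and T cell help in the light zone. Myc is a transcription factor of growth and division that binds the E-box sequence CACGTG together with its partner Max. In germinal centres it is known to be made briefly in a minority of cells that have received help and return to division. Its known targets include genes for ribosome assembly, nucleotide synthesis, protein folding and energy metabolism.

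Among the 50 genes that were higher with Myc by the measure explained below, E-boxes just before the gene's start were looked for as letters in the sequence. The word CACGTG reads the same on both strands, so 1 search covers both. It was present in the 250 bases before the start in 13 of 51 RefSeq promoters (25.5%) of these genes, which came from the 40 of 50 genes found in the promoter table. The share was 9.21% over 439 of 4767 promoters of all genes tested, and 6.02% over all 32851 promoters in the table. Counted by gene, 9 of 40 genes (22.5%) had the word in at least 1 promoter, against 406 of 3757 genes (10.8%) of all those tested and matched. Of the 14 genes that were lower with Myc, 64.3% were matched, which is too few for this count. A match of letters is not a measured binding site.

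Windows of 4 genes are shown because their genes carry results below, each with the E-box in capitals and 5′ to 3′ on the strand of the gene, from RefSeq on GRCm38.p6. Nme1 and Paics make nucleotides, Ndufa7 is a subunit of respiratory complex I, and Rpl14 is a protein of the large ribosomal subunit. The first base of the E-box lay 18 bases before the start of Nme1, 72 before that of Ndufa7, 168 before that of Rpl14 and 203 before that of Paics.
Nme1, chr11:93968273-93968302, minus strand: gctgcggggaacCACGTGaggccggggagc
Ndufa7, chr17:33824488-33824517, plus strand: gcggagaggagtCACGTGagcaggggatgc
Rpl14, chr9:120571337-120571366, plus strand: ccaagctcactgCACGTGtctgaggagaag
Paics, chr5:76951087-76951116, plus strand: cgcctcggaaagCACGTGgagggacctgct
In the GENCODE annotation the window before Nme1 overlapped exons of Nme1 and Gm20390, that before Ndufa7 an exon of Rps28, and that before Paics an exon of Ppat, another gene of purine synthesis. The window before Rpl14 overlapped no annotated gene.

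The Myc gene lies at chr15:61985341-61990361 (RefSeq, GRCm38.p6). The deposited values fell into 2 sets, cells 1 to 96 and cells 97 to 182, found from the values. Whether the sets match capture runs, plates or animals is not given by the labels. Set 1 held 12 cells with Myc of 96 (12.5%, interval 6.63 to 20.8%), and set 2 held 22 of 86 (25.6%, 16.8 to 36.1%). Together they were 18.7% of cells (13.3 to 25.1%). In set 1 the Myc values of these cells ran from 1.93 through a median of 8.0 to 11300. In set 2 they ran from 1.45 through 4.57 to 621. The highest value of set 1 stood far above the next, 602, whereas in set 2 the next was 585.

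Cells without Myc were mostly at the gene's lowest value in the set, called its floor here, which was 0.0141 in set 1 and 0.0111 in set 2. The floor held 80 cells of set 1 and 58 of set 2. The cells just outside the threshold had 0.714 in set 1 and 0.949 in set 2. A value of at least 5 was found in 7 cells of set 1 and 10 of set 2, which makes 9.34% of all cells. These values chose the cells and are given as a description.

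**Figure D1:**
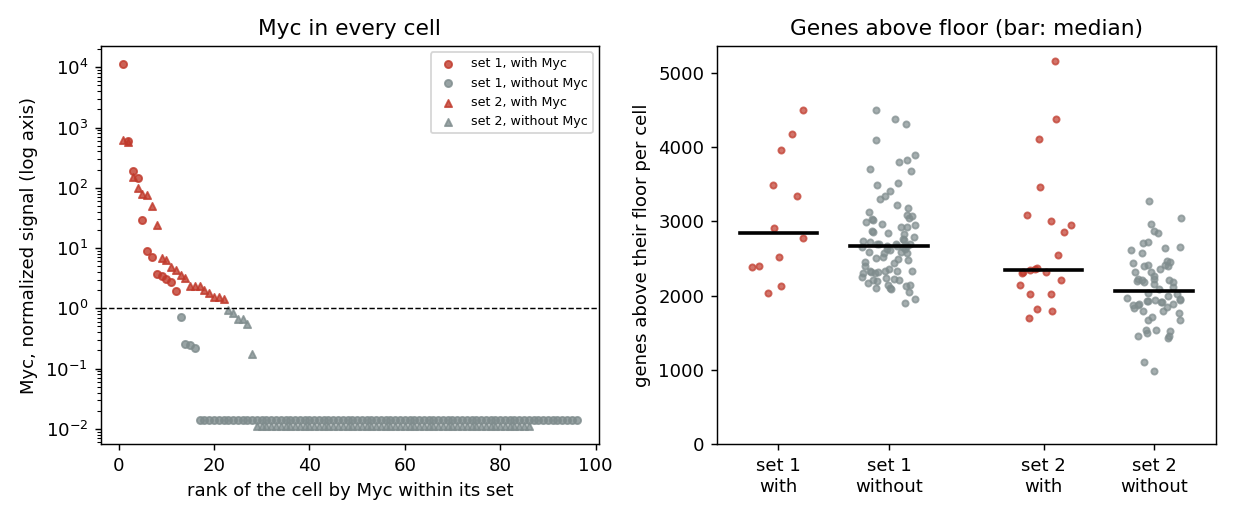
Left, normalized Myc signal of each of 182 cells on a log axis, ranked within its set, with the dashed line at the threshold of 1; right, the number of genes above their floor in each cell (points) with the median (bar), by set and side. The 34 cells with Myc spread from 1.45 to 11300, and their median number of genes above floor was the higher one in both sets.

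Cells with Myc also had more genes above their floor, the nearest measure of depth that this table gives. In set 1 they had a median of 2842 such genes (2039 to 4495), against 2662.5 (1904 to 4495) in cells without Myc. In set 2 the medians were 2348.5 (1696 to 5149) and 2065.5 (980 to 3269). Of cells with Myc, 7 of 12 and 17 of 22 lay above the median of the cells without. The ranges overlapped in both sets. The number of genes with a value of at least 1 had medians of 1904.5 and 1904 in set 1 and of 1697 and 1689.5 in set 2. In set 1 it ran only from 1890 to 1931 with Myc and from 1873 to 1946 without. In set 2 it ran from 1656 to 1741 and from 995 to 1735. Since this number was nearly the same in most cells, its equal medians cannot show equal depth. Read counts were not used here, so depth itself is unknown. A term for the log2 number of genes above floor was therefore fitted within each set, and values with this term are given beside the lists and the called genes described singly.

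Both sides carried the markers of the sorted cell type. Of 17 germinal centre B cell genes, cells with Myc had a median of 12.5 detected in set 1 and 11 in set 2, and cells without had 13 and 11. Of 10 myeloid genes and 8 genes of other cells the median was 0 on both sides in both sets. Of 7 T cell genes the median was 1, which Lck and Cd2, also found in B cells, could give. Cells with 2 or more of the 23 markers of other cell types, Lck and Cd2 not counted, were 3 of 12 with Myc and 18 of 84 without in set 1, and 4 of 22 and 13 of 64 in set 2. The summed myeloid signal ranged from 0.231 to 162 with Myc and to 1030 without in set 1, and from 0.157 to 501 and to 1160 in set 2. The summed T cell signal reached 4660 with Myc and 3570 without in set 1, and 3770 and 2390 in set 2. With Myc, 4 of the 7 T cell genes were detected in no cell of set 1, and 4 in no cell of set 2.

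The measure of difference was the mean of log2(value + 1) in cells with Myc minus that in cells without, taken within each set. It was computed for the 4637 genes, Myc left out, that had a value of at least 1 in at least 10% of cells of each set. A gene was called higher or lower when the difference was past 1 in the same direction in both sets. By this rule 50 genes were higher with Myc (1.08% of those tested) and 14 were lower (0.302%). In set 1 alone 382 genes were past 1 upwards and 199 downwards, and in set 2 alone 318 and 132. Another 32 genes were past 1 in opposite directions in the 2 sets. Without regard to size, 1147 genes (24.7%) were higher in both sets and 1311 (28.3%) were lower in both.

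Most single-gene differences did not recur from one set to the other. Across the 4637 genes, which are not independent replicates, the differences of the 2 sets had a Pearson r of 0.091 and a Spearman rho of 0.082. With the term for genes above floor r was -0.001. The standard deviation of the differences over genes was 0.69 in set 1, with 12 cells with Myc, and 0.61 in set 2, with 22. The medians over all genes were -0.06 and -0.002. With the cells of both sets pooled, 126 genes were past 1 upwards, including 46 of the 50, and 70 downwards, including all 14. With the term for genes above floor, 12 of the 50 and 5 of the 14 were still past 1 in both sets. All 50 kept a positive difference in both sets with that term, and 13 of the 14 a negative one. The exception was Hmha1, at 0.34 in set 2. Over all genes and with the term, 1046 (22.6%) were higher in both sets and 1356 (29.2%) were lower in both, with medians of -0.05 and -0.05.

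**Figure D2:**
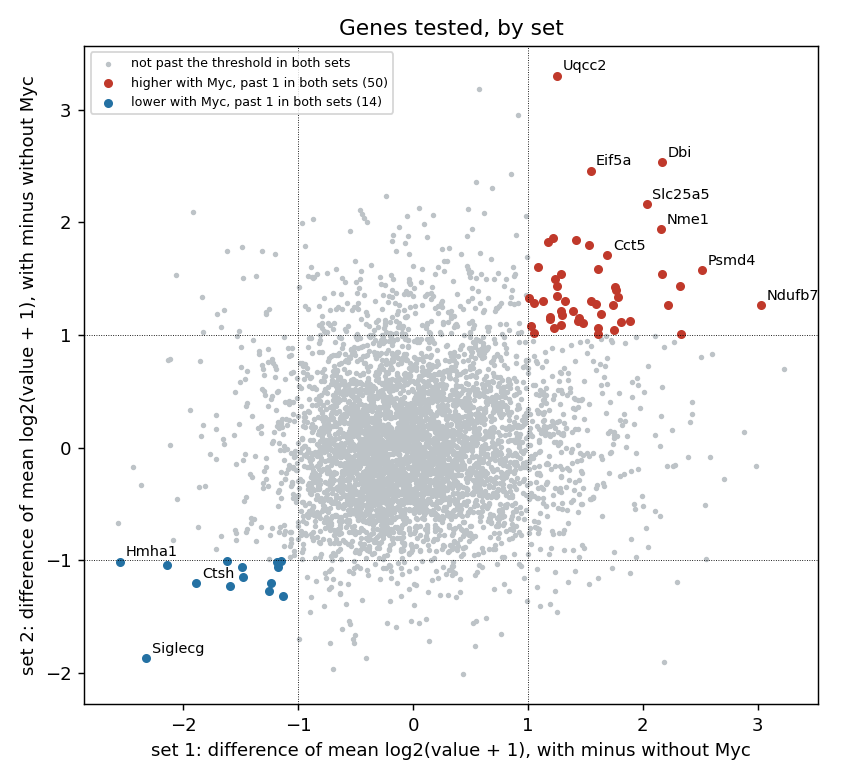
Difference of mean log2(value + 1), cells with minus cells without Myc, in set 1 (horizontal) and set 2 (vertical), 1 point for each of 4637 genes. The 50 genes past 1 in both sets (red) and the 14 past -1 in both (blue) lie at the corners of a cloud in which the 2 sets had a Pearson r of 0.091.

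The genes highest with Myc included genes of mitochondria, nucleotide supply, protein folding, protein breakdown and translation. Ranked by the smaller of the 2 differences, the leading 15 were Dbi, Slc25a5, Nme1, Cct5, Etfb, Psmd4, Eif5a, Ndufa3, Slc25a4, Naa38, H2afx, Ndufa7, Psmc5, Psmb2 and Polr2j. Their smaller difference ran from 1.31 for Polr2j to 2.17 for Dbi, which encodes a protein that binds acyl-CoA. Dbi was detected in 9 of 12 cells with Myc and 51 of 84 without in set 1, and in 13 of 22 and 19 of 64 in set 2. With the term for genes above floor it differed by 1.36 and 1.79.

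Slc25a5 and Slc25a4 encode the carriers that exchange ADP for ATP across the inner mitochondrial membrane. The Slc25a5 signal in cells with Myc had a lowest, median and highest value of 0.00778, 22.6 and 2730 in set 1, against 0.00778, 3.15 and 2390 without. In set 2 these values were 0, 14.6 and 5100 with Myc, and 0, 3.46 and 1010 without. The cells with Myc thus had the higher median in both sets, while the ranges overlapped almost entirely. The difference was 2.03 in set 1 and 2.16 in set 2, and 1.44 and 0.88 with the term for genes above floor. Slc25a4 differed by 1.53 and 1.80, or by 1.33 and 0.43 with that term. The wider family of mitochondrial carriers, grouped after the values were seen, did not lean one way. Of 11 tested, 4 were higher in both sets (36.4%, background 24.7%) and 4 lower (36.4%, background 28.3%), with medians of 0.017 and -0.012. With the term 3 were higher and 5 lower (background 22.6% and 29.2%). Etfb, the beta subunit of the electron transfer flavoprotein, differed by 1.61 and 1.59, and the complex I subunits Ndufa3 and Ndufa7 by 2.17 and 1.54 and by 1.42 and 1.84. With the term Etfb had 1.74 and 1.09, Ndufa3 1.45 and 0.37, and Ndufa7 1.05 and 1.21.

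Nme1, a nucleoside diphosphate kinase whose promoter window is printed above, was detected in 9 of 12 cells with Myc (75.0%, 42.8 to 94.5%) and 39 of 84 without (46.4%, 35.5 to 57.7%) in set 1. In set 2 the shares were 12 of 22 (54.5%, 32.2 to 75.6%) and 17 of 64 (26.6%, 16.3 to 39.1%). Its median signal was 13.4 with Myc and 0.524 without in set 1. In set 2 it was 3.47 with Myc, and without Myc it was 0.106, the floor. The difference was 2.16 and 1.94, and it stayed past 1 with the term for genes above floor, at 1.50 and 1.43. The intervals of the shares overlapped within each set.

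Eif5a, a translation factor that carries the modified lysine made from the polyamine spermidine, was detected in 11 of 12 and 20 of 22 cells with Myc. Without Myc it was detected in 65 of 84 and 43 of 64. Its median signal was 63.6 with Myc and 9.88 without in set 1, and 34.7 and 6.77 in set 2. The difference was 1.55 in set 1 and 2.46 in set 2, and 0.77 and 1.30 with the term for genes above floor. Eif5a turned negative in 1 set when cells with markers of other cell types were left out.

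Psmd4, the ubiquitin receptor of the proteasome cap, was detected in 9 of 12 cells with Myc and 40 of 84 without in set 1. In set 2 it was detected in 13 of 22 (59.1%, 36.4 to 79.3%) and 15 of 64 (23.4%, 13.8 to 35.7%), and these intervals did not overlap, which is a description since the gene was picked for its difference. The difference was 2.52 and 1.58, or 2.30 and 1.39 with the term for genes above floor. Psmc5, an ATPase of the cap, and Psmb2, a subunit of the core, differed by 1.77 and 1.40 and by 1.78 and 1.33, or by 1.51 and 0.92 and by 1.38 and 0.44 with the term. Of 35 proteasome subunits tested, 14 were higher in both sets (40.0%, background 24.7%) and 6 lower (17.1%, background 28.3%), with median differences of 0.005 and 0.60. With the term 10 were higher and 12 lower (background 22.6% and 29.2%), with medians of -0.22 and 0.14. The family of proteasome genes was chosen after these values had been seen.

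**Figure D3:**
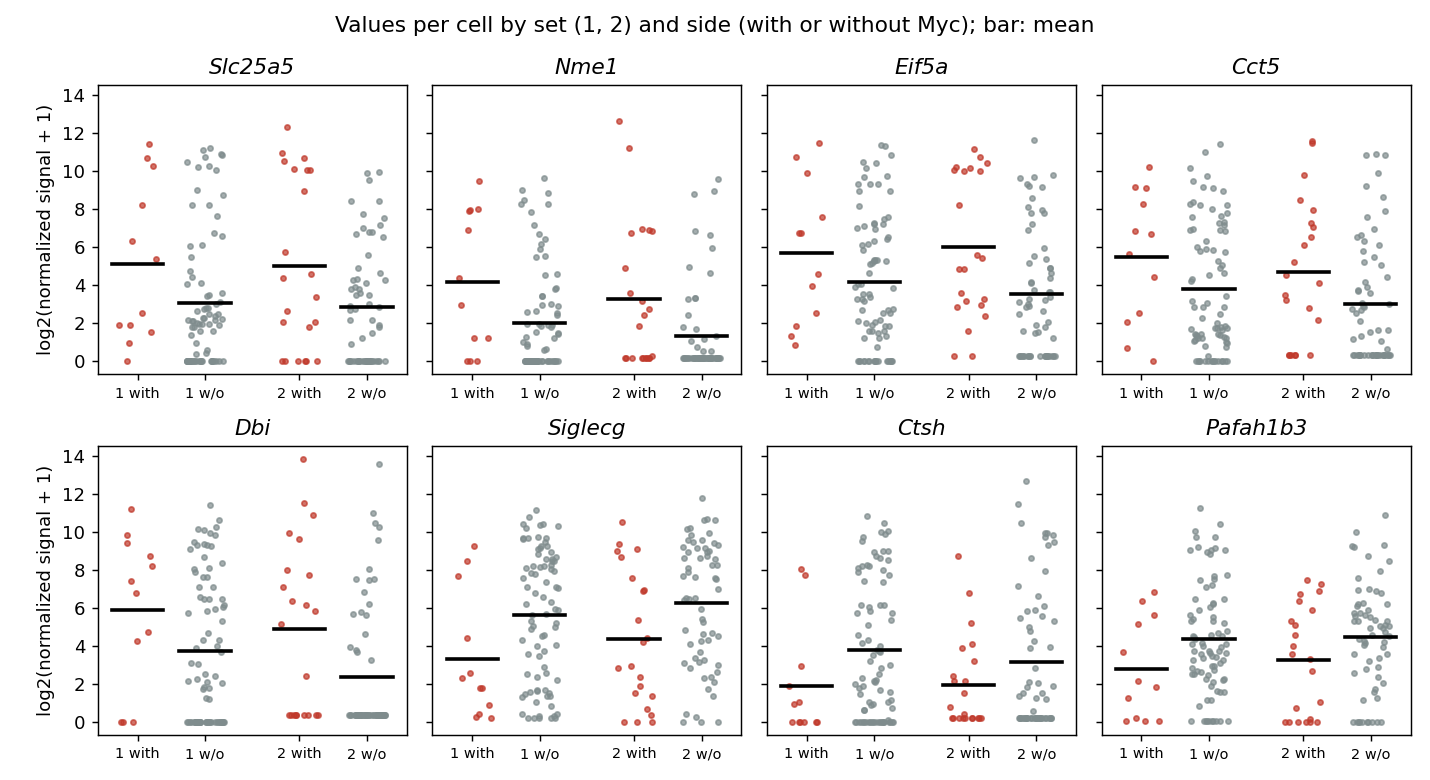
log2(normalized signal + 1) in every cell for 5 genes higher with Myc (Slc25a5, Nme1, Eif5a, Cct5, Dbi) and 3 lower (Siglecg, Ctsh, Pafah1b3), by set and side, with bars at the means. The means differ by more than 1 in the same direction in both sets, and the cells of the 2 sides overlap for each gene.

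Chaperones, which fold newly made proteins, had the largest share of genes on one side among the 22 lists with at least 3 genes tested. Of 20 listed, 19 passed the filter on low values, of which 16 were higher with Myc in both sets and none was lower. The background over all genes was 24.7% and 28.3%. Their median difference was 0.75 in set 1 and 0.99 in set 2, beside -0.06 and -0.002 over all genes. With the term for genes above floor 12 were higher and none was lower, beside 22.6% and 29.2% of all genes, with medians of 0.46 and 0.67. The 3 with mixed directions were Hspa8, Hsp90aa1 and Dnaja1, named after their values had been seen.

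The cytosolic chaperonin TRiC, the ring that folds actin and tubulin, gave 8 of these 16. Its 8 tested subunits, a family picked from the list after its values were seen, were higher in both sets, with medians of 0.81 and 1.30. The ninth subunit in the table, Cct6b, did not pass the filter. Of the 8, 4 were higher in both sets with the term for genes above floor, and none was lower in both. Cct5 was detected in 10 of 12 cells with Myc and 65 of 84 without in set 1, with median signals of 74.8 and 5.39. In set 2 it was detected in 16 of 22 and 37 of 64, with medians of 19.2 and 2.11. Its difference was 1.69 and 1.71, or 0.95 and 0.71 with the term. Cct4 differed by 0.89 and 1.88, Cct3 by 0.85 and 1.33, and Cct2 by 2.41 and 0.23.

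Hsp90ab1, the constitutive cytosolic HSP90, was detected in every cell, so its difference was one of level. In set 1 its lowest, median and highest signals were 277, 1130 and 3640 with Myc, and 2.04, 585 and 4690 without. In set 2 they were 2.55, 867 and 5980 with Myc, and 2.17, 399 and 2970 without. Cells with Myc had the higher median in both sets, and the ranges overlapped. The difference was 1.68 and 0.99, or 1.42 and 0.74 with the term for genes above floor. Hspe1, the mitochondrial co-chaperonin, differed by 1.05 and 1.29, or by 0.66 and 0.62 with the term.

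Genes of nucleotide and polyamine synthesis leaned towards cells with Myc. Of 30 listed, 19 were tested, of which 9 were higher in both sets (background 24.7%) and 3 lower (28.3%), with medians of 0.57 and 0.18. The counts were 8 and 4 with the term for genes above floor, beside 22.6% and 29.2% of all genes. Besides Nme1, the purine enzyme Paics passed the threshold, at 1.61 and 1.01, but its second value was 0.46 with the term. Nme2, a neighbour and close copy of Nme1 with which reads could be shared, differed by 0.57 and 1.39, and Mthfd2 and Shmt2, mitochondrial enzymes of one-carbon metabolism, by 1.29 and 0.86 and by 0.90 and 0.75. Odc1, the first enzyme of polyamine synthesis, had 0.66 in set 1 and -0.50 in set 2. The E-box word was found for 5 of the 17 matched genes of this list (29.4%), Nme1 and Paics included, and for 2 of 29 matched proteasome genes (6.90%). Too few chaperone genes (73.7%) and germinal centre B cell genes (70.6%) were matched for this count.

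Genes of ribosome assembly in the nucleolus gave 13 higher in both sets and 6 lower of 29 tested (39 listed), with medians of 0.36 and 0.19. These counts were 44.8% and 20.7%, beside 24.7% and 28.3% of all genes. Only Nhp2, a protein of the particles that modify ribosomal RNA, passed the threshold in both sets. It was detected in 8 of 12 cells with Myc and 23 of 84 without in set 1, and in 7 of 22 and 10 of 64 in set 2, with differences of 1.81 and 1.11, or 1.35 and 0.47 with the term. Its partner Dkc1 differed by 0.76 and 1.10. Npm1 differed by 1.66 and 0.62, Gnl3 by 1.79 and 0.48, Nop2 by 1.12 and 0.71, and Ncl by 1.24 and 0.05. Nop58, which belongs to the particles of the other modification class, was lower, at -0.86 and -0.60, as were Nop56 (-0.11 and -0.31), Pes1 (-0.23 and -0.70) and Polr1c (-0.51 and -0.48). Ppan and Tcof1 differed in opposite directions in the 2 sets, with 1.89 and -1.11 for Ppan and -1.34 and 0.86 for Tcof1. Of the 29, 10 were higher and 6 lower with the term for genes above floor, beside 22.6% and 29.2% of all genes. The E-box word was found for 2 of 26 matched genes of this list (7.69%).

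Translation factors (26 tested) were higher in both sets for 11 (42.3%, background 24.7%) and lower for 6 (23.1%, background 28.3%), with medians of 0.36 and 0.23. The lean was smaller with the term, which gave 8 higher and 7 lower, beside 22.6% and 29.2% of all genes. The medians were then 0.28 and -0.01, beside -0.05 and -0.05 over all genes. Eif3i differed by 2.10 and 0.99 and Eif1ax by 0.77 and 1.28, while Eif5b, which joins the ribosomal subunits, had -0.52 and -1.70. Ribosomal proteins of the cytosol split more evenly, with 10 higher (31.2%) and 6 lower (18.8%) of 32 tested and medians of -0.10 and 0.20. With the term more were lower, 15 against 8 higher, with medians of -0.29 and -0.12. Rplp0 was detected in all 34 cells with Myc, with median signals of 215 and 86.4, against 133 and 63.9 without. It differed by 1.45 and 1.15, or by 1.15 and 0.23 with the term. Rpl14 differed by 1.29 and 1.54, or by 0.76 and 0.88 with the term, though its reads could be shared with the pseudogene Rpl14-ps1, at 1.22 and 1.86. Rpl23 went the other way, at -1.17 and -1.06. Rplp0, Npm1, Eif5a and Hspe1 also have processed pseudogenes, and how the authors assigned such reads is not given in the sources used here.

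Oxidative phosphorylation, the respiratory chain and ATP synthase, leaned towards cells with Myc without the term for genes above floor and not with it. Of 36 subunits tested, 22 were higher with Myc in both sets (61.1%, background 24.7%) and 5 lower (13.9%, background 28.3%), with medians of 0.46 and 0.47. With the term 7 were higher (background 22.6%) and 14 lower (29.2%). The medians were then -0.01, near the -0.05 of all genes, in set 1 and -0.41 in set 2. Atp5b, the catalytic subunit of ATP synthase, passed the threshold, at 2.22 and 1.26, and had 1.60 and 0.78 with the term. Cox7a2 differed by 2.27 and 0.94, but by 1.84 and -0.44 with the term, whereas Uqcrc1 differed by 0.74 and 1.55, or 0.31 and 1.04. Complex I, taken as a family after the values were seen, gave 18 higher (54.5%) and 4 lower (12.1%) of 33, and 8 and 9 with the term. Glycolysis kept its direction, with 6 higher (75.0%) and 1 lower (12.5%) of 8 tested and 5 and 1 with the term. Aldoa, which splits fructose bisphosphate, differed by 0.92 and 2.96, and Ldha, lactate dehydrogenase A, by 0.98 and 0.77.

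**Figure D4:**
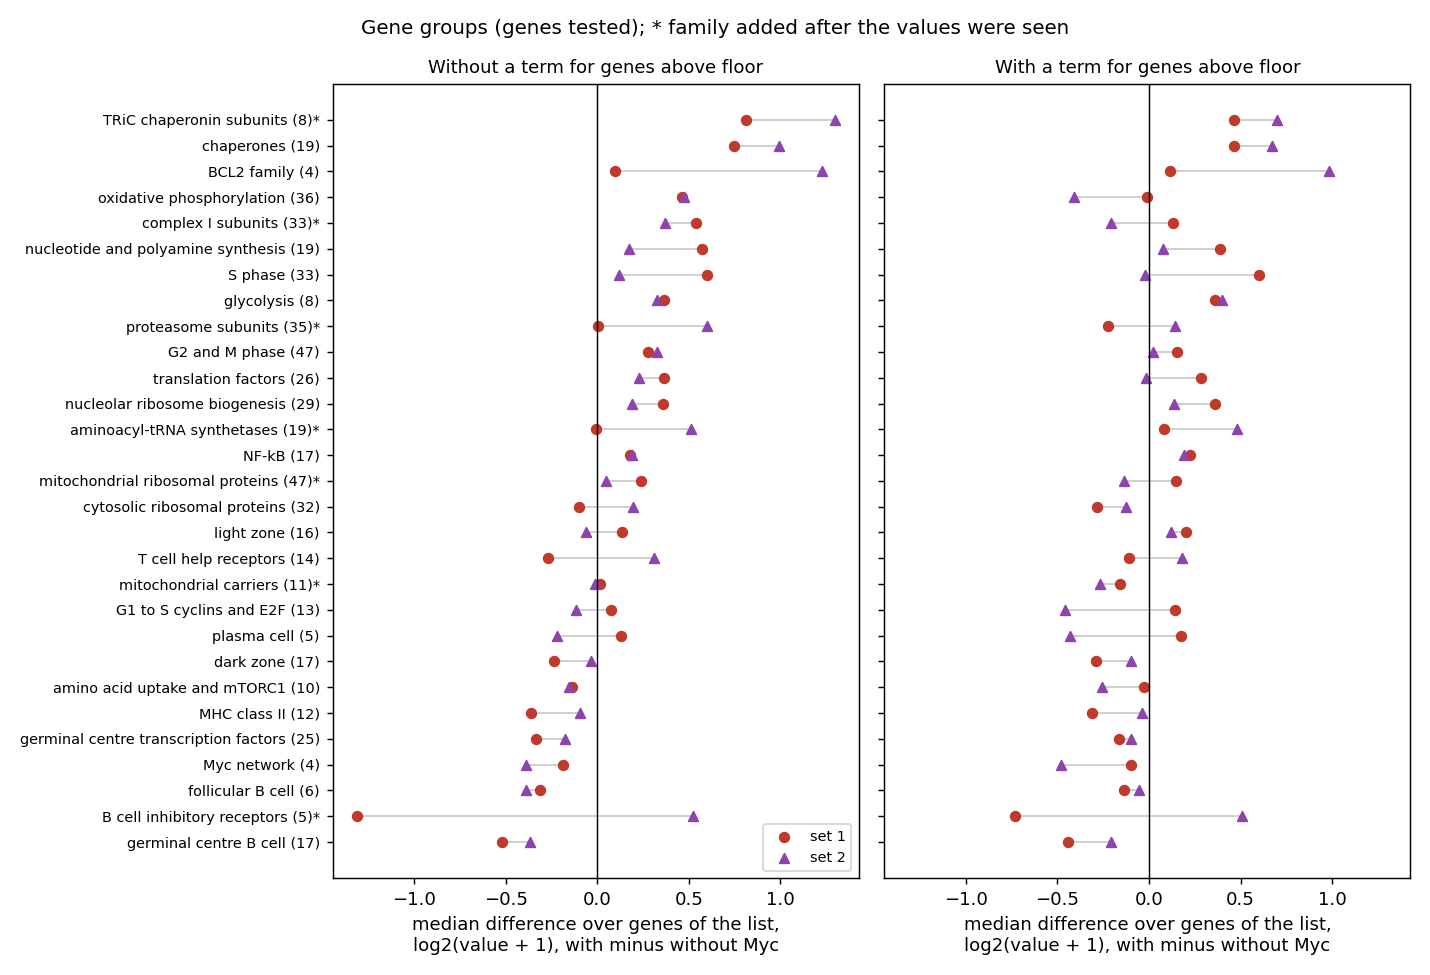
Median difference of log2(value + 1), with minus without Myc, over the tested genes of each list (number in brackets) in set 1 (circles) and set 2 (triangles), without (left) and with (right) a term for genes above floor. Chaperones lie at 0.75 and 0.99 on the left and 0.46 and 0.67 on the right, while oxidative phosphorylation moves from 0.46 and 0.47 to -0.01 and -0.41.

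Both Mki67 and Top2a were detected in 29 of 34 cells with Myc (85.3%, 68.9 to 95.1%) and 104 of 148 without (70.3%, 62.2 to 77.5%). In set 1 they were detected in 12 of 12 and 61 of 84, and in set 2 in 17 of 22 and 43 of 64. Neither was detected in 3 of 34 cells with Myc and 7 of 148 without. In set 1 these were 0 of 12 and 5 of 84, and in set 2 they were 3 of 22 and 2 of 64. Mki67 alone differed by 0.89 and -0.06. The intervals overlapped within each set. Mki67 and Top2a were paired this way after their values were known.

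Among 33 S phase genes tested, 15 were higher in both sets (45.5%, background 24.7%) and 3 lower (9.09%, background 28.3%). Their median difference was 0.60 in set 1 and 0.12 in set 2. Rrm1, the large subunit of ribonucleotide reductase, passed the threshold at 1.40 and 1.22, and was detected in 9 of 12 cells with Myc against 36 of 84 in set 1, and in 13 of 22 against 22 of 64 in set 2. It had 1.32 and 0.79 with the term. The replication genes Mcm5, Mcm2 and Uhrf1 were high with Myc in set 1 alone, at 2.99, 2.40 and 2.58, against -0.16, -0.08 and -0.09 in set 2. Rfc4 had 3.23 and 0.70. Of 47 G2 and M phase genes, 18 were higher (38.3%) and 3 lower (6.38%), and Birc5 had 1.51 and 0.84. The counts with the term were 12 and 4 for S phase, and 13 and 8 for G2 and M phase, beside 22.6% and 29.2% of all genes. The medians were then 0.60 and -0.02 for S phase, and 0.155 and 0.02 for G2 and M phase.

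Of 13 tested genes of G1 cyclins and E2F, 3 were higher in both sets, 2 were lower and 8 differed in direction between sets. Those higher and lower were 23.1% and 15.4%, beside 24.7% and 28.3% of all genes. With the term 2 were higher and 4 lower (background 22.6% and 29.2%). Ccnd3, the D cyclin of dividing germinal centre B cells, had 2.54 in set 1 and -0.51 in set 2. It was detected in 10 of 12 cells with Myc and 48 of 84 without in set 1, but in 8 of 22 and 29 of 64 in set 2. Cdk4, its partner kinase, had 1.91 and 0.45. Ccnd2, a D cyclin often placed downstream of Myc, had 0.07 and 0.68 and was detected in 7 of 34 cells with Myc. The 2 lower in both sets were E2f2, at -0.81 in set 2 and slightly further down in set 1, and Rbl1, at -0.26 and -0.20.

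Receptors of the germinal centre zones did not separate the sides at this number of cells. Cd83, a light zone receptor, was detected without Cxcr4, the chemokine receptor of the dark zone, in 10 of 34 cells with Myc (29.4%, 15.1 to 47.5%) and 43 of 148 without (29.1%, 21.9 to 37.1%). The sets went opposite ways, with 6 of 12 against 27 of 84 in set 1 and 4 of 22 against 16 of 64 in set 2. Cxcr4 without Cd83 was found in 8 of 34 and 44 of 148. Both were detected in 7 of 34 and 28 of 148, and all 7 cells with Myc were in set 2.

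Of 16 light zone genes tested, 5 were higher in both sets (31.2%, background 24.7%) and 5 lower (31.2%, background 28.3%). With the term 6 were higher and 2 lower (background 22.6% and 29.2%). Nfkbia, the inhibitor of NF-kB that NF-kB itself induces, passed the threshold at 1.61 and 1.06, and with the term for genes above floor it stayed past 1 in set 1 but had 0.24 in set 2. It was detected in similar shares, 9 of 12 and 58 of 84 in set 1, with median signals of 73.5 and 3.73. In set 2 the shares were 17 of 22 and 44 of 64, with medians of 9.71 and 5.17. Bcl2a1b, a survival gene with near-identical copies that can share reads, had 1.37 and 0.53, and Cd52 0.82 and 0.71. Cd86, a ligand for T cells, had -0.21 and -0.37, Slamf1 -0.64 and -0.16, and Cd40, the receptor for T cell help, -0.49 and 0.97. Of 17 dark zone genes, 3 were higher (17.6%) and 7 lower (41.2%), or 1 and 5 with the term. Among them Pafah1b3 passed the threshold at -1.59 and -1.23, with -1.57 and -1.36 after the term, and Cxcr4 had -0.94 in set 1 and 0.74 in set 2.

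NF-kB genes gave 7 higher (41.2%, background 24.7%) and 4 lower (23.5%, background 28.3%) of 17 tested, or 7 and 3 with the term (background 22.6% and 29.2%). Rel, a subunit known to act upstream of Myc in activated B cells, had 0.39 and 0.29, and Relb 0.24 and 0.56. Receptors and signals of T cell help gave 1 higher (7.14%), 3 lower (21.4%) and 10 mixed of 14, or 2 and 2 with the term. The 1 higher without the term was Tnfrsf13b, at 0.50 and 0.63. Il21r had 1.08 in set 1 and -1.24 in set 2. Of 14 listed partners and relatives of Myc, 11 were in the table and 4 were tested. None was higher in both sets and 3 were lower: Mxd3 (-0.52 and -0.21), Mga (-0.34 and -0.94) and Mlxip (-0.03 and -0.56). With the term none was higher and 2 were lower. Max did not pass the filter. Tfap4, a factor known to act after Myc in these cells, was detected in 1 of 34 cells with Myc and 2 of 148 without.

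Genes that mark germinal centre B cell identity leaned the other way. Of 17 tested, 2 were higher with Myc in both sets and 8 were lower, against 24.7% and 28.3% over all genes. The median differences were -0.52 and -0.37, and -0.44 and -0.21 with the term for genes above floor, which left 2 higher and 9 lower. None passed the threshold of 1 in both sets. Mef2b, a transcription factor that drives Bcl6, had -0.97 and -0.99, and Basp1 -0.69 and -1.97. Bcl6, the defining factor of germinal centre B cells, had 0.14 and 0.07, with median signals of 2.15 and 2.09 with and without Myc in set 1 and of 1.61 and 2.03 in set 2.

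Markers of follicular B cells, the resting cells outside the germinal centre, leaned down too, though less with the term for genes above floor. Of 12 listed, 6 were tested. Of these, 4 were lower with Myc in both sets (66.7%, background 28.3%) and 1 was higher (16.7%, background 24.7%), with medians of -0.31 and -0.39. With the term 3 were lower and 2 higher (background 29.2% and 22.6%). The medians were then -0.14 and -0.06, beside -0.05 and -0.05 over all genes. The summed signal of the 12 genes had a median of 21.8 with Myc and 74.3 without in set 1, and of 20.8 and 50.0 in set 2. The lower genes were Fcer2a, the low-affinity IgE receptor (-0.52 and -0.40), Cr2, a complement receptor (-0.10 and -0.92), Il4ra (-0.82 and -0.37) and Cd38 (-0.61 and -0.41), which is also on the germinal centre list.

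Of 25 transcription factors of the germinal centre tested, 11 were lower (44.0%, background 28.3%) and 5 higher (20.0%, background 24.7%). With the term 8 were lower and 6 higher, close to the 29.2% and 22.6% of all genes. Foxo1, the factor of the dark zone programme, had -0.92 and -1.15, and was detected in 3 of 12 and 7 of 22 cells with Myc against 40 of 84 and 32 of 64 without. Ebf1 had -0.55 and -1.57 and Mef2c -0.51 and -1.07. Irf4, which is induced by help and by plasma cell differentiation, did not pass the filter. It was detected in 4 of 12 cells with Myc and 5 of 84 without in set 1 and in 6 of 22 and 9 of 64 in set 2. Batf, another factor induced by help, was detected in 0 of 12 and 2 of 22 cells with Myc. Of 5 plasma cell genes tested, 1 was higher and 1 lower, or 0 and 1 with the term, and Prdm1, the driver of plasma cell fate, which did not pass the filter, had -0.03 and -0.03.

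Siglecg, an inhibitory receptor of B cells that binds sialic acid, was the gene with the most negative smaller difference. Its lowest, median and highest signals in set 1 were 0.137, 3.16 and 620 with Myc, and 0.137, 66.7 and 2250 without. In set 2 they were 0, 12.2 and 1480 with Myc, and 0, 109 and 3540 without. The medians were lower with Myc in both sets, and the ranges overlapped. It was detected in 8 of 12 cells with Myc (66.7%, 34.9 to 90.1%) and 74 of 84 without (88.1%, 79.2 to 94.1%) in set 1, and in 17 of 22 (77.3%, 54.6 to 92.2%) and 59 of 64 (92.2%, 82.7 to 97.4%) in set 2. The difference was -2.32 and -1.87, and -1.90 and -1.39 with the term for genes above floor. Of the 5 inhibitory receptors tested, grouped after the values were seen, 2 were lower in both sets (40.0%, background 28.3%) and none was higher, with and without the term. The other lower one was Ceacam1, at -0.11 and -0.19, while Cd22 had -1.31 and 0.52 and Cd72 -1.92 and 2.10.

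Other genes lower with Myc had varied roles. Ctsh, a lysosomal protease, differed by -1.89 and -1.21, or by -2.17 and -1.53 with the term, and H2-DMb1, a chain of the complex that loads peptides on MHC class II, by -1.23 and -1.21. H2-DMb1 had -0.88 and -0.12 with the term. Another class II gene, H2-Oa, which restrains that loading, was higher, at 1.64 and 1.19, or 1.55 and 0.56 with the term. The 12 class II genes split into 3 higher (25.0%, background 24.7%) and 5 lower (41.7%, background 28.3%), or 3 and 4 with the term. B4galnt1, an enzyme of ganglioside synthesis, was detected in 0 of 12 and 0 of 22 cells with Myc, for which the intervals allow shares of up to 26.5% and 15.4%. It was detected in 22 of 84 and 13 of 64 cells without. Its difference was -1.18 and -1.02, or -1.08 and -0.73 with the term. Others were Gpbp1l1, Mgea5, Nisch, Rpl23, Cntrl, Hmha1, Srsf3 and Arf6, with the smaller difference between -1.15 and -1.01.

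The heavy chain class was compared next. Each cell whose heavy chain constant genes summed to at least 10 was assigned to the 1 that made up more than 50% of that sum, which left 31 cells with Myc and 138 without. A switched class dominated in 3 of 31 cells with Myc (9.68%, 2.04 to 25.8%) and 38 of 138 without (27.5%, 20.3 to 35.8%). In set 1 the counts were 1 of 11 and 23 of 80, and in set 2 they were 2 of 20 and 15 of 58. Ighm, the unswitched IgM chain, dominated in 26 of 31 (83.9%, 66.3 to 94.6%) and 97 of 138 (70.3%, 61.9 to 77.8%). The share of switched cells was lower with Myc in both sets, and all of these intervals overlapped.

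The lists were last read along the Myc value itself, as the mean log2(value + 1) over a list's genes minus the mean of the cells at the Myc floor of the same set. For chaperones in set 2 the median was -0.05 in 58 cells at the floor, 0.05 in 6 cells above it but under 1, 0.15 in 12 cells from 1 to 5 and 1.81 in 10 cells at 5 or more. Of those 10 cells 9 lay above the median of the cells at the floor. In set 1 the medians did not follow this order: -0.19 in 80 cells at the floor, 1.57 in 4, 1.21 in 5 and 0.69 in 7. For ribosome assembly the medians in set 1 were -0.15, 0.14, 0.28 and 0.43 in this order, and all 7 cells at 5 or more lay above the floor cells' median. In set 2 they were -0.04, -0.34, -0.06 and 0.26, with 6 of 10 cells above. For germinal centre B cell genes the cells at 5 or more had a median of 0.18 in set 1 and -0.40 in set 2. The groups of 4 to 12 cells are small, and cells within each spread widely. No term for genes above floor was used for these levels, and their relation to that number was not tested. In set 1 the cells above the Myc floor but under 1 had 3219 to 4306 genes above floor. Those from 1 to 5 had 2398 to 4495, and those at 5 or more 2039 to 3488. In set 2 the ranges in this order were 2180 to 3038, 1696 to 4370 and 1816 to 5149.

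**Figure D5:**
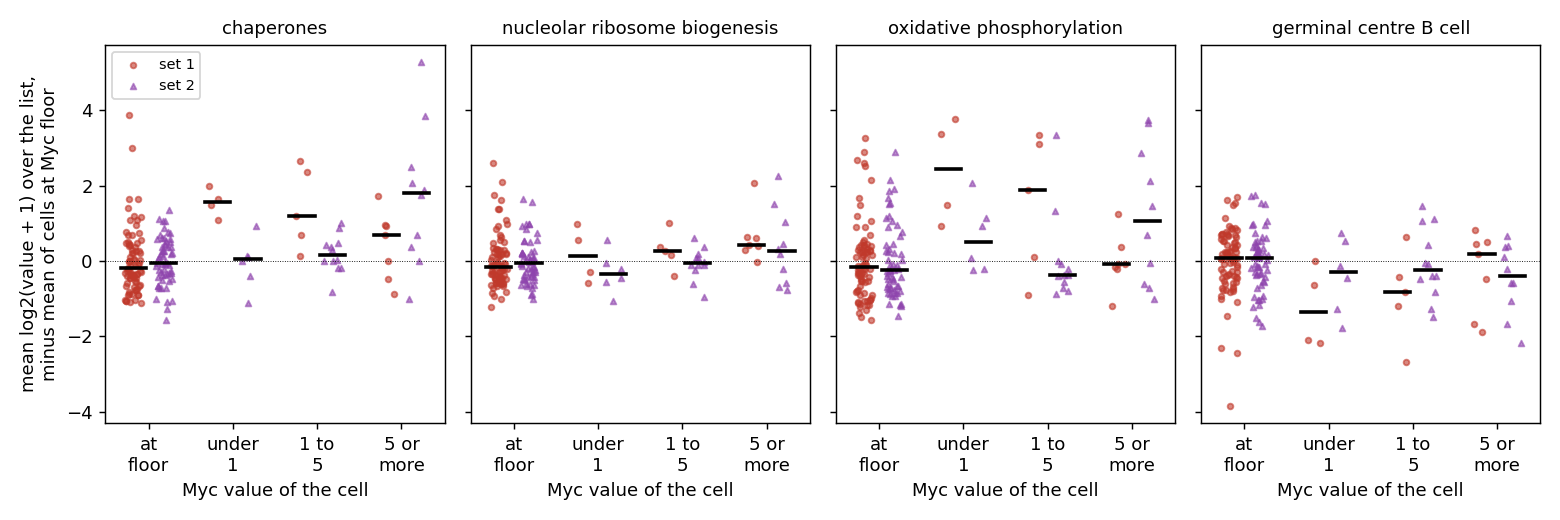
Mean log2(value + 1) over the tested genes of 4 lists in each cell, minus the mean of the cells at the Myc floor of the same set, by the cell's Myc value, with bars at the medians. Chaperones reach a median of 1.81 at Myc of 5 or more in set 2 and 0.69 in set 1, and the points of neighbouring groups overlap. No term for genes above floor was used.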

How the data were processed

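RNA of 182 single cells was read with SMARTer and Nextera XT chemistry. The authors deposited 1 table of a normalized signal that is not on a log scale and is neither counts nor TPM. Per the submitters' processing notes TopHat2 2.0, Cufflinks 2.2, Cuffdiff and the mm10 build were used. How the signal was normalized is not given in the sources used here. It covered 17035 rows for 17034 symbols, and 20 symbols turned into dates were not named. The sets, the sides, the 25 gene lists and the comparison were chosen with earlier results of these data known, and 7 gene families and 4 alternatives after these values were seen. Genes were named by rule: all members of 9 lists, up to 6 of each other list by the mean of both differences, and up to 15 called genes in each direction. Others are said to be chosen afterwards. Depth is unknown, no doublet caller was run, and capture was scored by eye. Python 3.11.15 with numpy 2.4.6, pandas 2.3.3 and scipy 1.17.1 was used. The scripts were tested on simulated normal values without floors, to which large shifts were added. That check does not cover values at a floor or differences near the threshold. Alternatives were other pseudocounts (0.1 and 10), Myc thresholds, gene filters, floors set to 0, a term for genes above floor and cells left out. Some genes that the rule would name are not reported here.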

Additional observations from a re-analysis of the deposited data

How the results depend on the processing

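The counts of genes past the threshold moved with several settings, and the cause was not tested. Against 50 higher genes, a pseudocount of 0.1 gave 154 and one of 10 gave 9, Myc of at least 5 against under 1 gave 86, Myc above floor against at floor gave 79, and the term for genes above floor gave 22. Of the 50, these settings shared 50, 7, 22, 32 and 12. Against 14 lower genes, the counts were 82 and 1 for the pseudocounts, 44 for Myc of at least 5, and 30 without the 10% of cells with most genes above floor. Of the 29 named by rank, 7 stayed past the threshold with a pseudocount of 10, 15 with Myc of at least 5, 19 with Myc above floor, 11 with the term, 13 without the cells with most genes above floor and 15 without cells with markers of other cell types. Cells with Myc were 18.7% of all, or 9.34% at a threshold of 5. Of the 29, none turned direction in the mean of both sets, but under 4 of 11 settings some turned in 1 set: Ndufa7, Polr2j and H2-DMb1 with Myc of at least 5, Hmha1 with the term, Psmb2 and Polr2j without the cells with most genes above floor, and Eif5a without cells with markers of other cell types. Of the 50 and the 14, 18 and 8 were still called without cells with such markers, and 18 and 6 without the cells with most genes above floor. Without the cell of highest Myc 41 of the 50 and 14 of the 14 were, and without cell 122, a cell without Myc with a summed signal of 3443762.5, 46 and 12. Some called genes outside the 29 also turned in set 1 with Myc of at least 5 against under 1. Among them Rpl14 had -0.53 in set 1 and 1.66 in set 2, Rpl14-ps1 -0.625 and 2.49, and Hspe1 -0.645 and 2.11. No paired analysis was possible because the cells formed 1 group without animal labels and no test was run.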
